A study of Mus musculus with 2 samples.

Results

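The genes described here handle iron and heme in cells of the heart. They are 9 of the 27809 genes of the matrix and were found by their symbols. *Hmox1* encodes heme oxygenase 1, which opens the heme ring and frees iron, carbon monoxide and biliverdin. *Blvra* and *Blvrb* encode the biliverdin reductases A and B, of which A makes bilirubin from biliverdin and B is also a flavin reductase. *Slc40a1* encodes ferroportin, the exporter of iron from cells. *Slc11a1* encodes NRAMP1, a metal transporter of the phagosome membrane. *Tfrc* encodes the transferrin receptor, by which cells take up iron bound to transferrin. *Fth1* and *Ftl1* encode the heavy and light chains of ferritin, which stores iron. *Hpgd* encodes the enzyme that inactivates prostaglandins by oxidation, and it stands in the list without an iron role of its own.

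CD45+ cells, which are leukocytes, came from the hearts of male C57BL/6N mice aged 8 weeks, or of CD3e-/- mice on a C57BL/6 background. Hearts were taken 1 week after sham surgery or TAC, a constriction of the transverse aorta that loads the left ventricle with pressure. The 5 groups were WT sham, CD3e-/- sham, WT TAC, CD3e-/- TAC and WT mice labelled as depleted of CD8+ T cells after TAC, called CD8-depleted TAC here. CD3e-/- mice lack a chain of the T cell receptor complex and have few T cells, and the antibody to CD8 was given on the day of surgery and every 3 days. The hearts were rinsed free of blood and digested with warm enzymes, and leukocytes were enriched on Percoll and by magnetic beads to CD45. The cells of each group carried a hashtag, and all groups were sequenced in 1 pooled TAS-Seq library, a method that barcodes the RNA of single cells in microwells. Each group is therefore 1 sample, the number of mice behind a hashtag is not given in the sources used here, and no test was possible between groups.

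Macrophages of the spleen and liver take up aged red cells, break down their heme and return the iron through ferroportin. Resident macrophages of other organs carry parts of the same program, and in inflammation macrophages tend to hold iron in ferritin. C57BL/6 mice carry an *Slc11a1* allele whose protein does not work, so the reads of this gene tell of RNA only. At low iron, the iron regulatory proteins bind hairpins called iron responsive elements in several of these RNAs. A hairpin ahead of the coding part blocks translation, and hairpins behind it protect the RNA from decay, so that the amount of ferritin or ferroportin protein can move without its RNA.

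Matches to the letters of this hairpin are shown for the members that hold them, as a description of their RNAs and not as tested sites. The motif searched was a C, any 5 bases, then CAGTG and any base, with those 5 bases able to pair with the 5 bases that follow (G with T allowed). It was searched on the RNA strand only, in the untranslated parts of the GENCODE vM1 transcripts. Capitals mark the motif, and the sequences are in DNA letters.
Fth1, ahead of the coding part: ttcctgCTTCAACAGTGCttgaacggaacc
Ftl1, ahead of the coding part: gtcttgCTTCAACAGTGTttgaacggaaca
Slc40a1, ahead of the coding part: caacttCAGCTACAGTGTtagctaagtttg
Tfrc, behind the coding part, the first match: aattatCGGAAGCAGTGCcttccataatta
Tfrc, behind the coding part, the second match: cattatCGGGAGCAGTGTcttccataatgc
Tfrc held 4 matches in all, *Fth1*, *Ftl1* and *Slc40a1* held 1 each, and the transcripts of the other 5 members held none of these letters in those parts. Of all genes with an annotated part ahead of the coding sequence, 33 of 19854 (0.166%) held such a match there, and 124 of 19915 (0.623%) held one behind it. The reads measured here count RNA and hold no information on translation.

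On the genome of the files (GRCm38, positions from RefSeq), *Hmox1* lies at chr8:75093618-75100593, *Hpgd* at chr8:56294552-56321046, *Blvra* at chr2:127070629-127097084 and *Blvrb* at chr7:27447978-27465981. *Slc40a1* lies at chr1:45908070-45926532, *Slc11a1* at chr1:74375014-74386057 and *Tfrc* at chr16:32608896-32632794. *Fth1* lies at chr19:9980600-9985111 and *Ftl1* at chr7:45457944-45459886. The counts are given per gene, so a value belongs to no exon in particular.

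Of 5315 cells with a hashtag, 5263 were kept, with 835 to 1615 per group and a median of 75442 to 117788 reads per cell. Reads were not collapsed to molecules, so every interval given here covers counting error alone and is too narrow. No barcode was shared between groups. Monocytes and macrophages were gated by *Csf1r* and *Lyz2*, which gave 3387 cells, namely 564, 475, 1087, 659 and 602 in WT sham, CD3e-/- sham, WT TAC, CD3e-/- TAC and CD8-depleted TAC. Values for the groups follow this order throughout. Inside the gate, cells were put in classes by 1 gene each, none of them a member. The classes are called by that gene: the *Lyve1* class (193 cells), the *Gpnmb* class (147), the *Ly6c2* class (510), the *Ccr2* class (1158) and the *Ccr2*-low class of the rest (1274). A *Cd209a* class (408 cells, in and outside the gate) and a B cell class (463) stood beside them. The kept cells left over were 1067 other cells outside the gate and 43 mixed cells that met both the *Cd79a* and the *Lyz2* limit. Markers set for the check were compared with the mean level of the other named classes, with 10 CPM added to both. At least 2-fold higher were 7 of 7 in the *Lyve1* class, 7 of 7 in the *Gpnmb* class, 6 of 8 in the *Ly6c2* class, 6 of 7 in the *Cd209a* class and 6 of 6 in the B class. The 4 T cell receptor genes *Cd3d*, *Cd3e*, *Cd3g* and *Trac* summed to 125, 7.41, 64.2, 7.38 and 90.8 CPM (reads per 1000000 reads) over all kept cells, so the CD3e-/- groups were the low ones.

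The members were not read evenly over the classes. Within the monocytes, macrophages and *Cd209a* cells, 4 of 9 members had their highest level in the *Lyve1* class (*Blvrb*, *Slc40a1*, *Tfrc*, *Hpgd*) and 4 in the *Gpnmb* class (*Hmox1*, *Blvra*, *Fth1*, *Ftl1*), while *Slc11a1* was highest in the *Ccr2*-low class. Levels are the summed reads of a class as CPM of that class, pooled over the groups unless a group is named. Without the gated cells highest in tissue dissociation genes (847 of 3387), 2 of 9 were highest in the *Lyve1* class (*Blvrb* and *Hpgd*), and *Slc40a1* was then highest in the *Gpnmb* class and *Tfrc* in the *Cd209a* class.

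**Figure D1:**
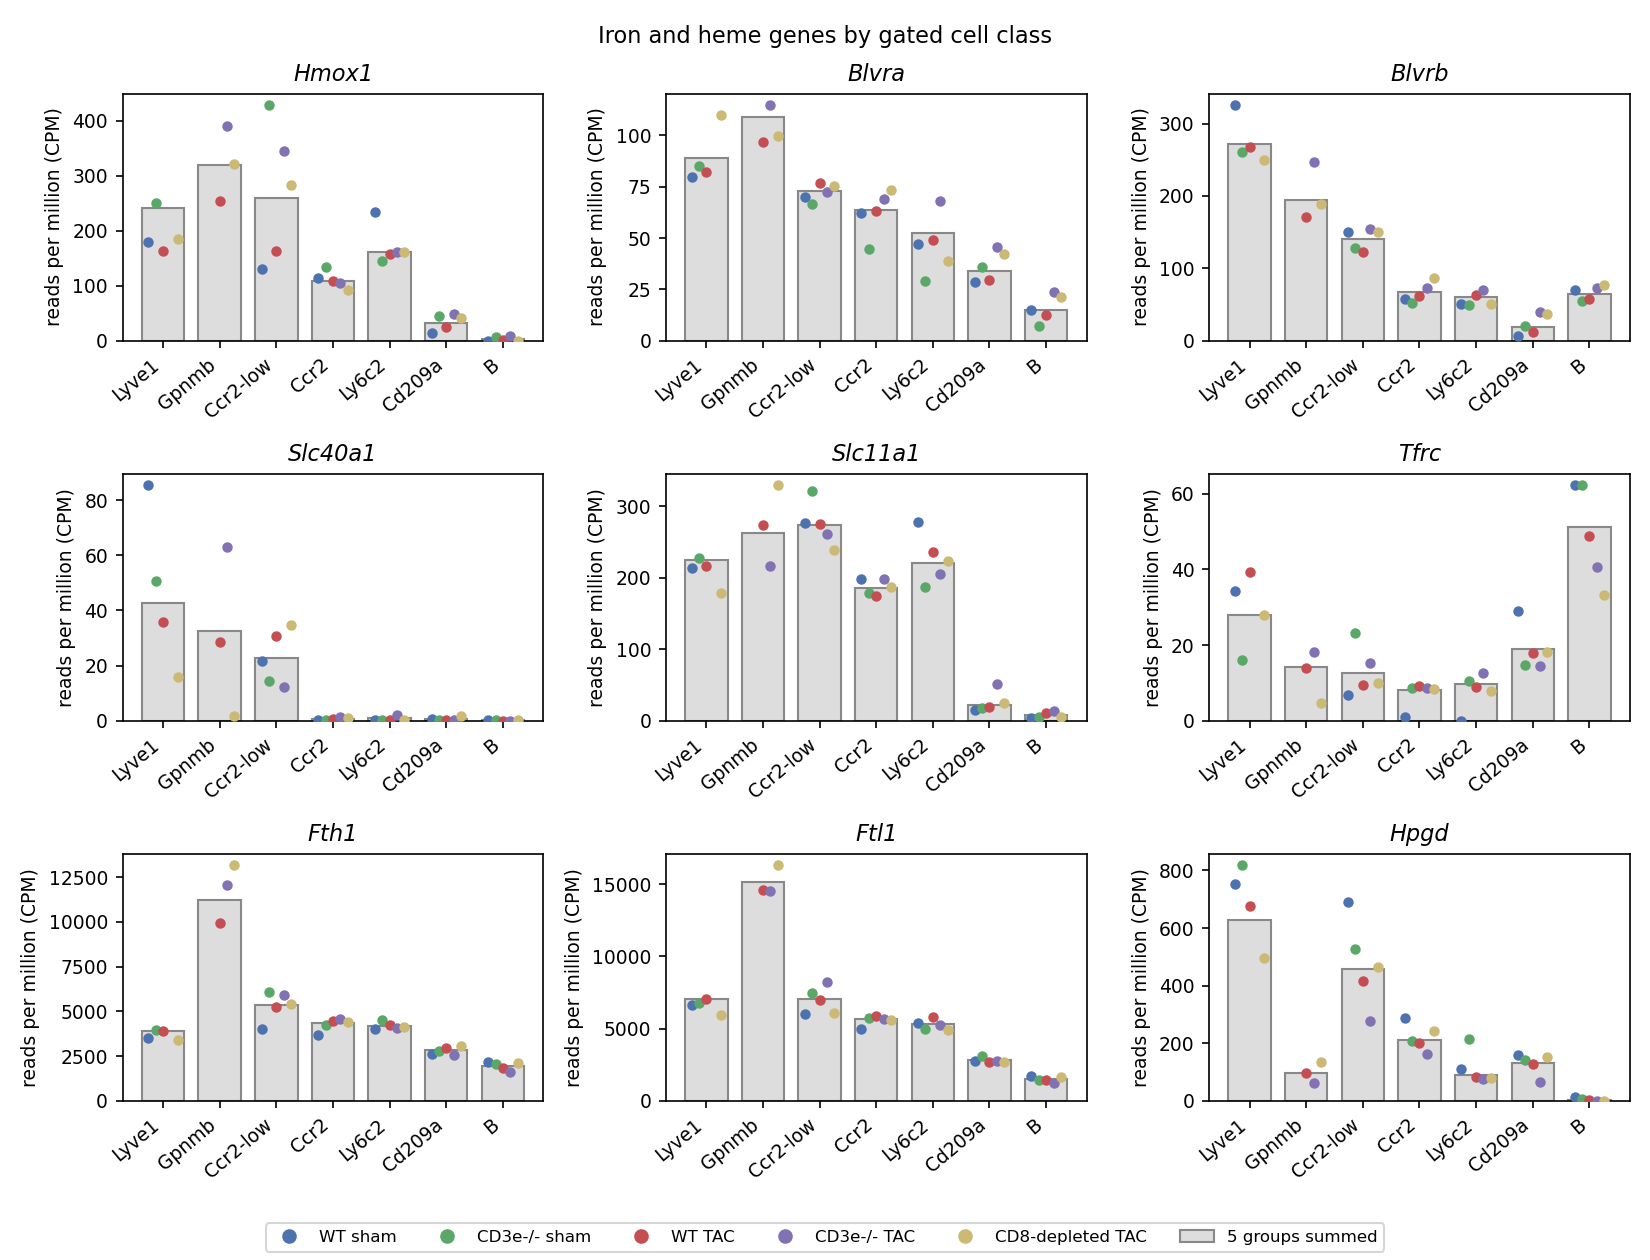
Level of each member by gated cell class, in summed CPM on a linear axis that starts at 0. Grey bars are the 5 groups summed, and points are single groups with at least 20 cells in the class. Ferritin stands out in the *Gpnmb* class, *Slc40a1* is near 0 in the *Ccr2*, *Ly6c2* and *Cd209a* classes, and *Hpgd* is highest in the *Lyve1* class.

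Of the heme breakdown genes, *Hmox1* had 320 CPM in the *Gpnmb* class, 258 CPM in the *Ccr2*-low class, 240 CPM in the *Lyve1* class, 162 CPM in the *Ly6c2* class, 109 CPM in the *Ccr2* class and 31.4 CPM in the *Cd209a* class. B cells had 3.71 CPM. The highest and the next class differed by 1.24 times. Among classes of at least 20 cells, the *Gpnmb* class was the highest in the 3 TAC groups. In WT sham and CD3e-/- sham it held 12 and 4 cells and was not ranked. The *Lyve1* class of CD3e-/- TAC, with 14 cells, was not ranked either, so the order of the first classes is known only in part. *Blvra* ran from 109 CPM in the *Gpnmb* class and 89.1 CPM in the *Lyve1* class down to 34.1 CPM in the *Cd209a* class. *Blvrb* had 271 CPM in the *Lyve1* class, 194 CPM in the *Gpnmb* class and 140 CPM in the *Ccr2*-low class, and 66.6 CPM or less in the others. Among classes of at least 20 cells, *Blvrb* was highest in the *Lyve1* class in the 4 groups where that class held as many. Its level there was 325, 260, 267, 217 and 249 CPM, with 14 cells in CD3e-/- TAC. For *Blvra* the *Gpnmb* class led in 2 groups only, among classes of at least 20 cells, and pooled it was above the *Lyve1* class by 1.22 times. Both reductases thus lay with *Hmox1* in macrophage classes, but the leading class was less settled for *Blvra* than for *Blvrb*.

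Of the transport genes, *Slc40a1* was the most restricted. It had 42.8 CPM in the *Lyve1* class, 32.7 CPM in the *Gpnmb* class and 22.9 CPM in the *Ccr2*-low class, against 0.770 CPM in the *Ccr2* class, 0.931 CPM in the *Ly6c2* class and 0.467 CPM in the *Cd209a* class. The 1067 other cells had 9.11 CPM, so it was not confined to those 3 classes. After each cell was thinned to 38953 reads, 20.3% of *Lyve1* class cells had a read of it (14.6% to 27.1%, exact Clopper-Pearson interval of 95%), as had 13.4% (8.25% to 20.1%) of the *Gpnmb* class and 8.71% (7.08% to 10.6%) of the *Ccr2*-low class. Of 304 B cells 0 had one, for which the same interval reaches 1.21%. *Slc40a1* reads were thus found in a minority of the cells even where it was highest.

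*Slc11a1* was nearly even over the gated classes. It had 273 CPM in the *Ccr2*-low class, 262 CPM in the *Gpnmb* class, 224 CPM in the *Lyve1* class, 220 CPM in the *Ly6c2* class and 185 CPM in the *Ccr2* class. It dropped to 22.2 CPM in the *Cd209a* class and 7.62 CPM in B cells. *Tfrc* went the other way, with 51.2 CPM in B cells, 27.9 CPM in the *Lyve1* class, 19.1 CPM in the *Cd209a* class and 8.02 to 14.2 CPM in the remaining gated classes. The 1067 other cells had 22.3 CPM. B cells were the class with the highest *Tfrc* of all, and the *Lyve1* class was above the *Cd209a* class by 1.46 times.

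The ferritin chains were read in nearly every cell, at 1 read or more in 5262 and 5260 of 5263 kept cells for *Fth1* and *Ftl1*. *Fth1* had 11245 CPM in the *Gpnmb* class, 5326 CPM in the *Ccr2*-low class, 4366 CPM in the *Ccr2* class, 4159 CPM in the *Ly6c2* class and 3894 CPM in the *Lyve1* class. *Ftl1* had 15136 CPM in the *Gpnmb* class, and the next class, the *Lyve1* class, had 7074 CPM. B cells were lowest for both, with 1968 CPM and 1485 CPM. The *Gpnmb* class was above the next class by 2.11 times for *Fth1* and 2.14 times for *Ftl1*. Where it held at least 20 cells, its *Fth1* was 9949.6 CPM in WT TAC, 12039 CPM in CD3e-/- TAC and 13149 CPM in CD8-depleted TAC. Reads of ferritin can be shared with its processed pseudogenes: *Ftl1-ps1* had 328 CPM and *Ftl2-ps* had 56.5 CPM over all kept cells, so the ferritin levels are uncertain by what the authors' counting split among them.

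*Hpgd* had 628 CPM in the *Lyve1* class, 456 CPM in the *Ccr2*-low class, 209 CPM in the *Ccr2* class, 133 CPM in the *Cd209a* class, 96.2 CPM in the *Gpnmb* class and 88.0 CPM in the *Ly6c2* class. B cells had 4.30 CPM. Among gated cells it was therefore low in the class that was high in ferritin, and high in the class that was high in *Slc40a1* and *Blvrb*.

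The *Lyve1* class was also set against the rest of the gate. *Blvrb* was at 2.63 times, *Slc40a1* at 2.62 times and *Hpgd* (628 against 256 CPM) past 2 times the level of the rest on the scale with 10 CPM added, and *Fth1* was lower, at 0.766 times. Past 2-fold were 3 of 9 members higher and 0 lower, where 3.22% of 7269 genes of at least 20 CPM were higher and 3.44% lower. The median log2 ratio was 0.40 for the members and 0.01 for all those genes. *Blvrb* and *Hpgd* were higher in the *Lyve1* class in all 5 groups and *Slc40a1* in 4. *Slc40a1* there was 85.4, 50.7, 35.9, 0 and 16.0 CPM, the 0 coming from 14 cells of CD3e-/- TAC with no read, for which the Poisson interval reaches 1.04 CPM. The summed level was highest in the sham groups, but it came from 53 to 515 reads in the 4 groups that had any. The share of cells with a read did not follow it: after thinning it was 27.1% (16.4% to 40.3%) in WT sham, 18.5% (6.30% to 38.1%) in CD3e-/- sham, 23.4% (12.3% to 38.03%) in WT TAC and 11.5% (2.45% to 30.2%) in CD8-depleted TAC, with intervals that overlap throughout.

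Other genes of the pathway in the *Lyve1* class came from a list of 52 genes of the matrix, of which 33 had at least 20 CPM on one side. Past 2-fold, 4 were higher and 2 lower, and the median log2 ratio of the list was -0.01. The higher ones were *Cd163*, the receptor for hemoglobin bound to haptoglobin (653 CPM against 60.9 CPM), *Cp*, the ferroxidase ceruloplasmin (113 against 24.1 CPM), *Maf*, a transcription factor of resident macrophages (1168 against 417 CPM), and *Trf*, transferrin (1297 against 534 CPM). The lower ones were *Hp*, haptoglobin (0.461 against 107 CPM), and *Hif1a*, the oxygen-sensing transcription factor (46.6 against 148 CPM). *Cd163* is also one of the markers by which the class was checked and *Hp* one of those of the *Ly6c2* class, so neither is separate from the classes.

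Reads of *Slc40a1* could be followed to single cells. Gated cells of at least 100 CPM numbered 112 of 3387, a limit set after its values were seen, and they held 91.5% of the gated *Slc40a1* reads. Their share was 4.08%, 2.11%, 3.68%, 3.34% and 2.82% of gated cells, with exact intervals of 2.60% to 6.06% for WT sham and 1.01% to 3.84% for CD3e-/- sham, which overlap, and 33 cells lay within 1.5 times of the limit. Of these cells 24 were in the *Lyve1* class, 14 in the *Gpnmb* class and 70 in the *Ccr2*-low class.

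Set against the other gated cells, the *Slc40a1* cells were past 1.5-fold for 4 of the 8 other members and lower for 0, where 9.97% of 3930 genes of at least 50 CPM were higher and 12.7% lower. *Hmox1* was 474 against 174 CPM, *Blvrb* 267 against 101 CPM, *Hpgd* 599 against 265 CPM and *Ftl1* 11088 against 6534 CPM, each higher in all 5 groups. Of the pathway list, *Trf* (1270 against 552 CPM), *Cp* (105 against 26.3 CPM), *Cd163* (383 against 82.0 CPM) and *Ncoa4*, the receptor that delivers ferritin for breakdown (184 against 72.4 CPM), were higher in 5 of 5 groups, while *Hp* was lower in 5 of 5. The genes with the largest ratio in these cells, named after their values were seen, were *S100a9* and *S100a8*, markers of neutrophils, but each was higher in 2 groups only. The neutrophil list (6 genes) summed to 629 against 137 CPM, and its part in the result was not tested. Next came *Gas6*, the ligand of the receptors that take up dying cells, at 562 against 91.7 CPM in 5 of 5 groups.

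Between groups, most members kept their level in the gate. With 10 CPM added to both sides, no comparison had more than 2 members past 1.5-fold. Most genes also stayed within 1.5-fold, so this count does not mark the members as unusually stable. In CD3e-/- sham against WT sham 1 of 9 members was higher and 1 lower, beside 1.39% and 1.62% of genes of at least 20 CPM. In CD8-depleted TAC against WT TAC 0 members were past the limit. The ratios between groups compare 1 sample with 1 sample.

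**Figure D2:**
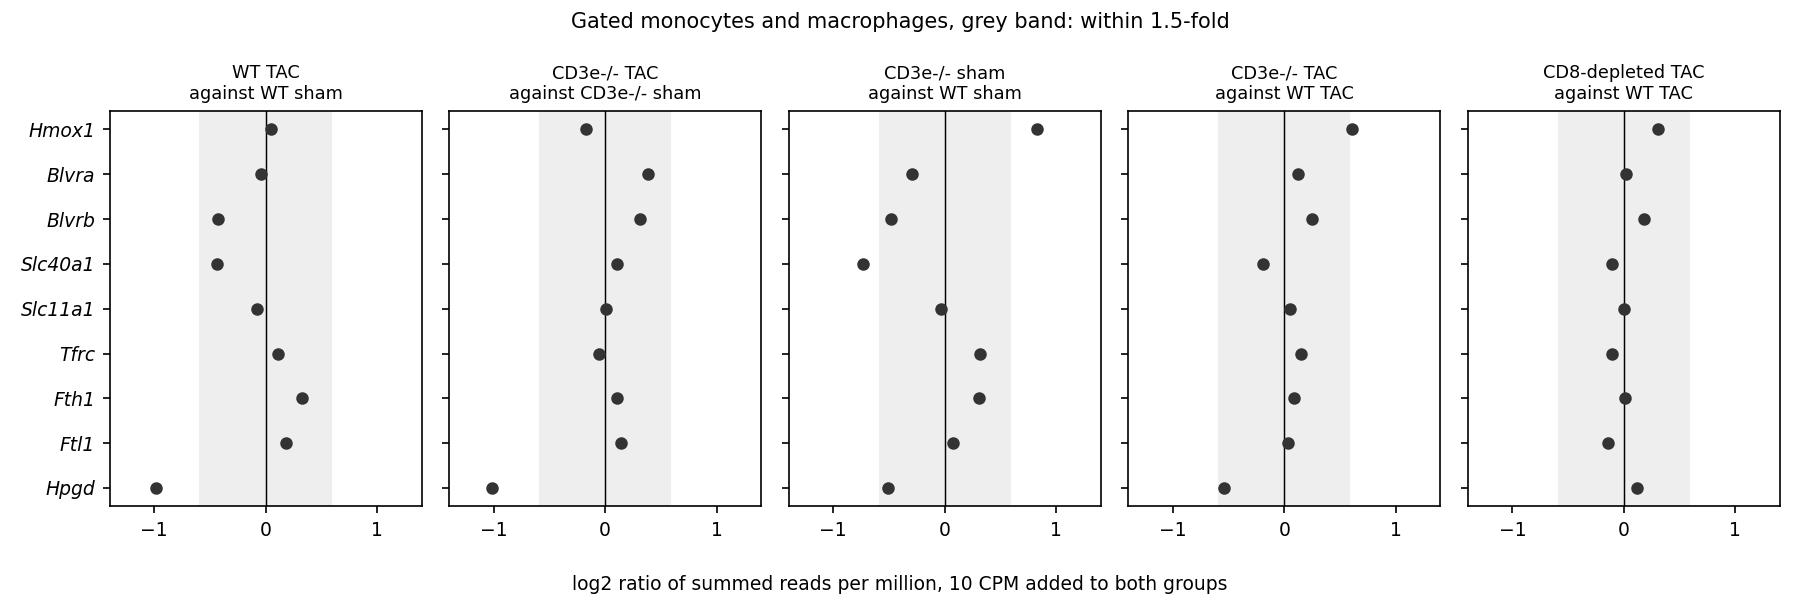
Log2 ratio of each member between hashtag groups in the gated monocytes and macrophages, 1 panel per comparison, 10 CPM added to both groups. Points are single ratios of summed reads, with 1 sample per group and no error bar, and the grey band is within 1.5-fold. *Hpgd* lies below the band in both TAC against sham panels and *Hmox1* above it in both CD3e-/- against WT panels.

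After TAC in WT mice, 0 of 9 members were past 1.5-fold higher and 1 lower, where 4.41% of 3722 genes of at least 50 CPM were higher and 3.28% lower. In CD3e-/- mice again 0 were higher and 1 lower, where 6.99% of 3735 genes were higher and 4.28% lower. The 1 lower gene was *Hpgd* both times. The median log2 ratio of the members was -0.04 and 0.11, beside 0.04 and 0.06 for all those genes. *Hpgd* had 498, 347, 247, 167 and 268 CPM in the gate. Its log2 ratio was -0.98 for WT TAC against WT sham and -1.01 for CD3e-/- TAC against CD3e-/- sham. The 3 TAC groups all lay below both sham groups, and CD3e-/- was below WT in sham and in TAC (log2 ratios of -0.51 and -0.54, within 1.5-fold). In TAC this came past 1.5-fold with the mean of single cells (log2 -0.59), without the top 1% of cells (-0.61) and without dividing cells (-0.65).

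The share of gated cells with an *Hpgd* read followed the same order, at 68.4%, 59.9%, 48.7%, 39.3% and 50.9% after thinning, and 67.2%, 60.0%, 48.1%, 39.0% and 50.7% before. B cells had 1.64% after thinning, with a median of 47514 reads per B cell against 99548 per gated cell. The exact interval was 64.0% to 72.5% in WT sham and 45.5% to 51.9% in WT TAC, and 55.0% to 64.7% in CD3e-/- sham and 35.4% to 43.3% in CD3e-/- TAC, so these intervals, over cells of 1 sample per group, did not overlap within a genotype. The lowest number of reads of *Hpgd* in a cell that had any was 7, as for *Hmox1*, while it was 1 for the other 7 members. For these 2 genes cells with few reads thus count as cells with none, and thinning does not undo this.

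Cells were spread differently over the classes in the groups, and this touches *Hpgd*. The *Lyve1* class held 12.2%, 6.32%, 4.69%, 2.12% and 4.82% of the gated cells, the *Ccr2*-low class 52.3%, 45.1%, 32.5%, 32.0% and 33.4%, and the *Ly6c2* class 4.26%, 6.95%, 14.2%, 24.7% and 22.6%. Classes with much *Hpgd* were thus larger in sham. The mean *Hpgd* of a gated cell differed by -262 CPM between WT TAC and WT sham, of which -125 CPM went with the shares of the classes and -138 CPM with the levels within them. Between CD3e-/- TAC and CD3e-/- sham it differed by -266 CPM, of which -66.5 CPM went with shares and -200 CPM with levels. With the class shares of WT TAC put in both groups, the log2 ratio was -0.46 in WT, within 1.5-fold, and -0.83 in CD3e-/-, past it.

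Within classes, *Hpgd* in the *Ccr2*-low class was 692, 528, 415, 277 and 463 CPM, so the TAC groups were lower than their sham groups there too. In the *Ccr2* class it was 289, 209, 200, 164 and 244 CPM, and in the *Ly6c2* class 110, 213, 81.1, 76.4 and 79.4 CPM. In the *Lyve1* class it was 751, 817, 676 and 495 CPM in the 4 groups of at least 20 cells, and CD3e-/- TAC had 14 cells. WT TAC was thus below WT sham in these 4 classes, and the ratio was nearest to 1 in the *Lyve1* class. The *Gpnmb* class held 12 and 4 cells in the sham groups, too few to compare.

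**Figure D3:**
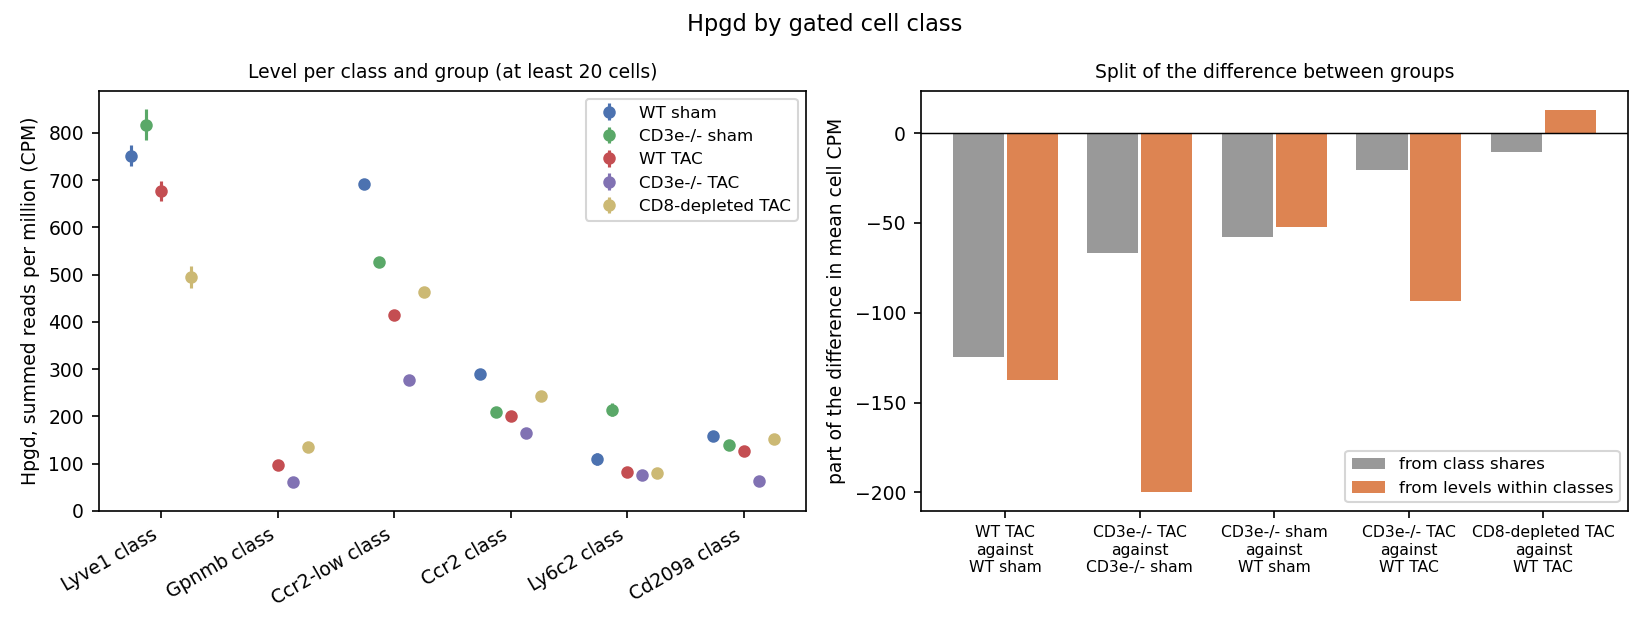
Left, *Hpgd* in summed CPM by class and group for classes of at least 20 cells, with exact Poisson intervals for counting error alone. Right, the difference in mean *Hpgd* of a gated cell (CPM) for each comparison, split into a part from the shares of the classes and a part from the levels within them. Both parts are below 0 in each comparison but the last.

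The tissue dissociation list (9 genes such as *Fos* and *Hspa1a*) summed to 13473, 11762, 6943, 5909 and 7038 CPM in the gate, so it was higher in sham, as *Hpgd* was. Without the 847 gated cells with the highest sum of this list, the members past 1.5-fold after TAC were still *Hpgd* alone, in WT and in CD3e-/-. In WT sham *Hpgd* was 514 CPM in those cells and 487 CPM in the rest, and in WT TAC 300.1 CPM and 235 CPM. It was 410.3 CPM and 312 CPM in CD3e-/- sham, but 116 CPM and 172 CPM in CD3e-/- TAC and 258 CPM and 271 CPM in CD8-depleted TAC, where those cells were the lower ones.

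The ferritin chains lay higher after TAC by less than 1.5-fold. *Fth1* had 4048, 5011, 5069, 5401 and 5121 CPM, with a log2 ratio of 0.32 for WT TAC against WT sham and 0.11 for CD3e-/- TAC against CD3e-/- sham. WT sham was the low group, and the other 4 lay close together. *Ftl1* had 6077, 6402, 6902, 7077 and 6267 CPM. *Blvrb* had 130.0, 90.3, 94.4, 114 and 108 CPM, so it was highest in WT sham, and its ratio after TAC was below 0 in WT (log2 -0.42) and above 0 in CD3e-/- mice (log2 0.31), neither past 1.5-fold. *Blvra* had 68.9, 54.2, 66.9, 74.0 and 67.9 CPM. *Slc11a1* had 228, 222, 215, 223 and 215 CPM and was the most even of the members. *Tfrc* had 9.08, 13.8, 10.6, 12.9 and 9.16 CPM, all within 1.5-fold on the scale used.

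Between genotypes, the members past 1.5-fold were *Hmox1* and *Slc40a1*. In CD3e-/- sham against WT sham 1 of 9 members was higher and 1 lower, where 1.24% of 3638 genes of at least 50 CPM were higher and 1.35% lower. The lower member, *Slc40a1*, was under 50 CPM in both groups and so not among those genes. Of 6909 genes of at least 20 CPM, 1.62% were lower. In CD3e-/- TAC against WT TAC 1 was higher and 0 lower, where 1.25% of 3667 genes were higher and 0.709% lower. The median log2 ratio of the members was -0.04 and 0.09, beside -0.00 and 0.02 for all those genes. *Hmox1* had 138, 253, 143, 223 and 179 CPM in the gate, which gave a log2 ratio of 0.83 in sham and 0.61 in TAC. Both CD3e-/- groups lay above both WT groups, and CD8-depleted TAC lay between them. Fibroblast genes (4 genes such as *Col1a1*) summed to 57.7 CPM in the gate of CD3e-/- sham and to 1.70, 6.12, 4.42 and 2.19 CPM in WT sham, WT TAC, CD3e-/- TAC and CD8-depleted TAC, and their part in the result was not tested.

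Few cells carried much of this difference of *Hmox1*. The 5 gated cells with most *Hmox1* reads held 12.9%, 35.3%, 18.3%, 26.3% and 27.2% of the *Hmox1* reads of their group. Gated cells of at least 1000 CPM, a limit set after the values were seen, numbered 9 of 564, 15 of 475, 18 of 1087, 19 of 659 and 17 of 602, which is 1.60% (0.732% to 3.01%), 3.16% (1.78% to 5.16%), 1.66% (0.984% to 2.60%), 2.88% (1.74% to 4.47%) and 2.82% (1.65% to 4.48%). These intervals overlap in every pair of groups, and 116 cells lay within 1.5 times of the limit. The high cells held 13.4%, 51.4%, 25.01%, 43.3% and 40.5% of the *Hmox1* reads. The remaining cells had 121, 129, 109, 131 and 109 CPM, so without the high cells the groups lay within 1.5-fold of each other. The log2 ratio of *Hmox1* was then 0.09 for CD3e-/- sham against WT sham and 0.25 for CD3e-/- TAC against WT TAC, though cells chosen by *Hmox1* were taken out to get it.

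**Figure D4:**
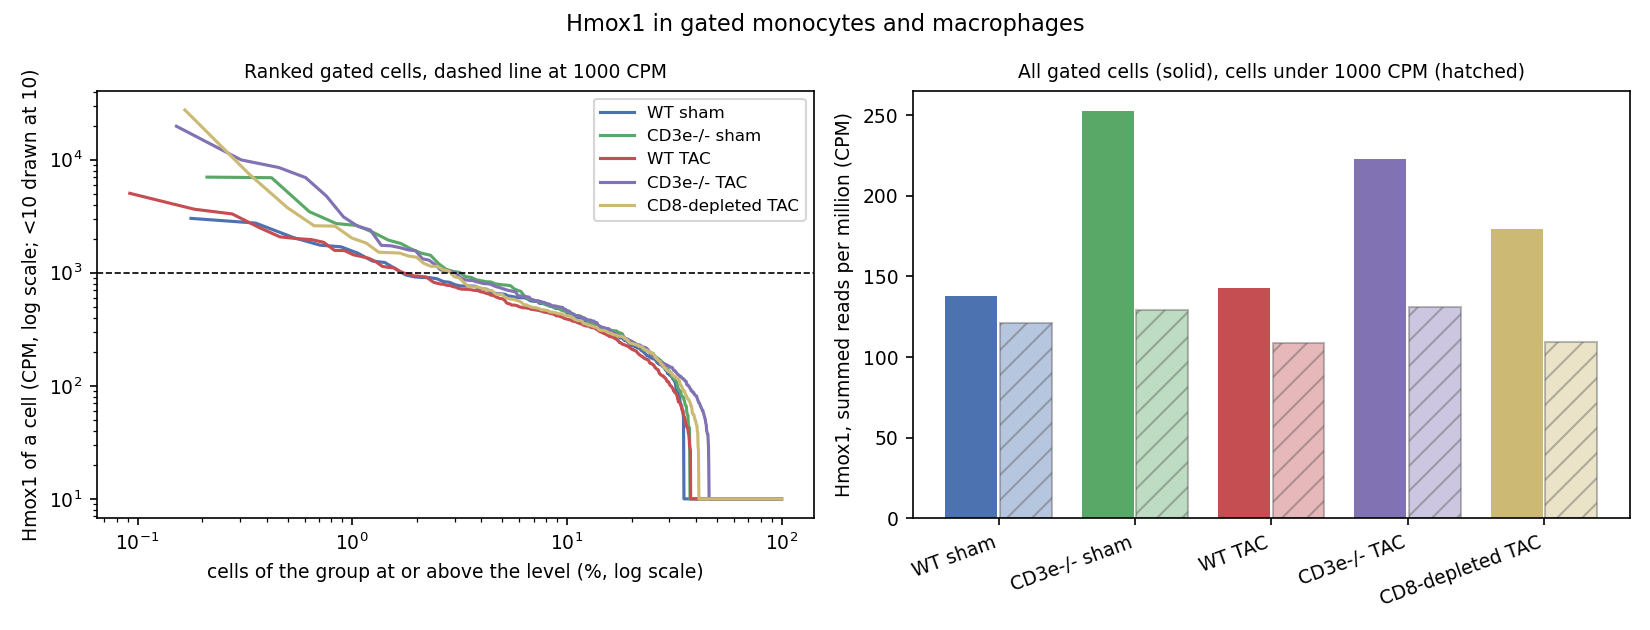
Left, gated cells of each group ranked by *Hmox1*, with the share of cells at or above a level on the x axis and the level of the cell in CPM on the y axis, both on log scales. Right, *Hmox1* in summed CPM over all gated cells (solid) and over the cells under 1000 CPM (hatched), on a linear axis from 0. The curves part among the highest few percent of cells, and the hatched bars sit between 109 and 131 CPM. The share of cells with any read, without thinning, ran from 34.9% in WT sham to 46.0% in CD3e-/- TAC.

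The share of gated cells with any *Hmox1* read differed less than the level. It was 38.2%, 40.6%, 39.5%, 46.6% and 42.7% after thinning, and 1.64% in B cells. The exact intervals of WT TAC (36.4% to 42.58%) and CD3e-/- TAC (42.595% to 50.6%) lay just apart. These intervals count cells of 1 sample per group and are no test between groups. Thinning does not bring back cells with fewer than 7 *Hmox1* reads, which count as cells with none. Gated cells of CD3e-/- TAC had a median of 128661 reads, those of WT TAC 101023, and the part of depth was not tested. With the mean of single cells in place of summed reads *Hmox1* was 136, 182, 130.2, 224 and 201 CPM, and the ratio of CD3e-/- sham to WT sham came within 1.5-fold (log2 0.39). Deep cells weigh more in the sum: the high cells of CD3e-/- sham had a median of 195780 reads, against 81141 in its other gated cells. In the other groups the high cells had medians of 40107 (WT sham), 83007 (WT TAC), 125295 (CD3e-/- TAC) and 113094 (CD8-depleted TAC) reads.

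By class, the high *Hmox1* cells were 41 of the *Ccr2*-low class (3.22%), 12 of the *Gpnmb* class (8.16%), 11 of the *Ccr2* class (0.950%), 10 of the *Ly6c2* class (1.96%), 3 of the *Lyve1* class (1.55%) and 1 of the gated *Cd209a* class (0.952%). In the *Ccr2*-low class, which held most of the high cells, *Hmox1* was 129, 428, 162, 344 and 282 CPM. In the *Ccr2* class it was 114, 133, 108, 105 and 91.4 CPM, with no such order. The highest single cells reached 3027, 7009, 5041, 19753 and 27532 CPM.

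The high *Hmox1* cells differed from the other gated cells in 7 of the 8 other members by more than 1.5-fold, 6 higher and 1 lower, where 10.6% of 3898 genes were higher and 8.75% lower. *Fth1* was 12543 against 4817 CPM, *Ftl1* 17029 against 6379 CPM, *Slc11a1* 403 against 214 CPM and *Blvrb* 196 against 103 CPM, each higher in all 5 groups. *Hpgd* was lower in all 5, at 127 against 279 CPM. *Blvra* was 109 against 66.3 CPM in 4 groups and *Slc40a1* 50.6 against 10.8 CPM in 3 groups. The median log2 ratio was 0.87 for the other members and -0.01 for all those genes. Of the pathway list, *Alas1*, the first enzyme of heme synthesis, was 150.1 against 46.4 CPM and *Slc48a1*, a heme transporter of the lysosome, 187 against 73.7 CPM, each in 4 of 5 groups.

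The genes with the largest ratios in the high *Hmox1* cells were *Ccl17*, *Mmp12*, *Areg*, *Gdf15* and *Vsig4*, named after their values were seen. *Ccl17*, a chemokine, was 593 against 12.2 CPM but higher in 3 groups only, and *Vsig4* in 1. *Mmp12*, macrophage elastase, was 2097 against 144 CPM and *Gdf15*, a stress cytokine, 159 against 11.5 CPM, each in 4 groups. Of the 10 leading genes, the 1 that was higher in all 5 groups was *Srxn1*, a sulfiredoxin that like *Hmox1* is a target of the NRF2 factor, at 147 against 14.3 CPM. The erythroid list (4 of its 6 genes in the matrix) summed to 0.0859 CPM in the high cells and 0.392 CPM in the others, so hemoglobin RNA was near 0 in both. The tissue dissociation list summed to 7832 and 8132 CPM. The dividing cell list summed to 58.2 against 183 CPM and the neutrophil list to 60.9 against 154 CPM, each higher in 0 of 5 groups, and their part in the result was not tested.

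Cells very high in ferritin were described in the same way. Their overlap with the high *Hmox1* cells was not counted, so they are not a separate view of those cells. Of the gated cells 71 had at least 15000 CPM of *Fth1*, a limit set after the values were seen: 1 of 564, 11 of 475, 21 of 1087, 16 of 659 and 22 of 602. The share was 0.177% (0.00449% to 0.984%) in WT sham and 1.16% or more at the lower bound in CD3e-/- sham, WT TAC, CD3e-/- TAC and CD8-depleted TAC, where the interval of WT sham ends at 0.984%. These intervals count cells of 1 sample per group and are no test between groups, and 8 more WT sham cells lay within 1.5 times of the limit. Of these cells 32 were in the *Gpnmb* class, 26 in the *Ccr2*-low class and 0 in the *Lyve1* class, where 0 of 193 cells has an exact interval up to 1.89%. A total of 187 gated cells lay within 1.5 times of the limit, so these cells are the end of a range.

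In the high ferritin cells 6 of the 8 other members were higher and 1 lower past 1.5-fold, where 11.2% of 3869 genes were higher and 13.3% lower. *Hmox1* was 1081 against 151 CPM and *Blvrb* 239 against 101 CPM, each higher in all 5 groups, and *Hpgd* was 99.8 against 281 CPM, lower in all 5. The high ferritin cells of WT sham were 1 cell, so 1 of the 5 groups rests on it here and below. *Slc40a1*, counted among the higher members, was 28.0 against 11.3 CPM, under the 50 CPM limit of those genes, and higher in 2 groups only. *Cd163* was 15.5 against 93.5 CPM and *Trf* 319 against 582 CPM, both lower in all 5, which is the reverse of their direction in the *Slc40a1* cells. *Gdf15*, at 186 against 9.49 CPM, was higher in all 5. The erythroid list summed to 1.91 against 0.329 CPM, the tissue dissociation list to 4975 against 8236 CPM, the dividing cell list to 10.1 against 186 CPM and the neutrophil list to 84.7 against 154 CPM, and their part in the result was not tested. The median reads per cell were 185872 in these cells and 98218 in the others, and the part of depth in the result was not tested.

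**Figure D5:**
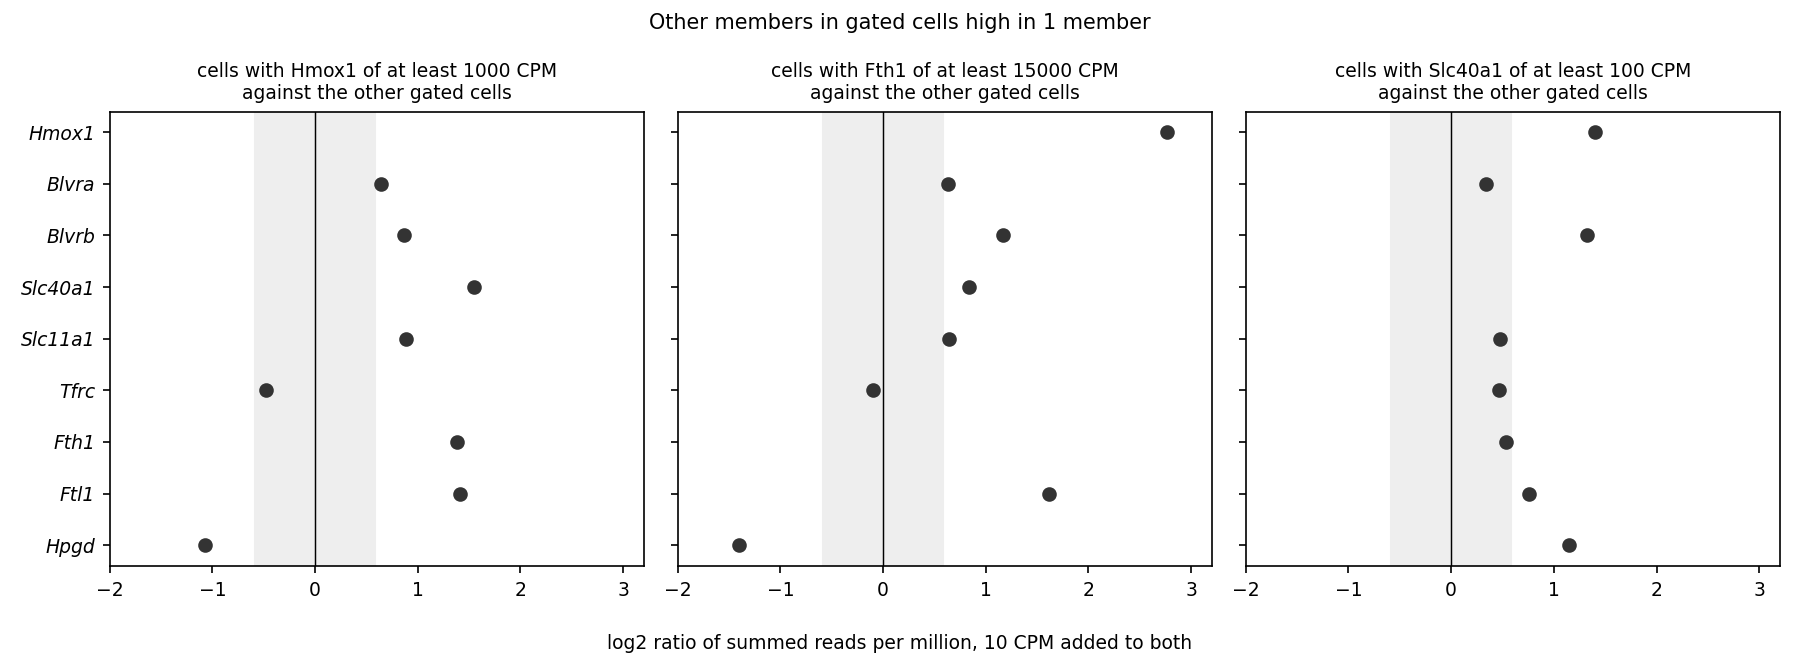
Log2 ratio of the other members in gated cells high in 1 member against the remaining gated cells, 10 CPM added to both, pooled over the groups, with the grey band within 1.5-fold. *Fth1*, *Ftl1* and *Blvrb* are above 0 in the panels of *Hmox1* and *Slc40a1*, while *Hpgd* is below 0 in cells high in *Hmox1* or *Fth1* and above 0 in cells high in *Slc40a1*.

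*Slc40a1* was the member past 1.5-fold lower in CD3e-/- sham. It had 20.2, 8.19, 12.4, 9.58 and 10.8 CPM in the gate, which gave a log2 ratio of -0.73 for CD3e-/- sham against WT sham and -0.44 for WT TAC against WT sham. WT sham was the high group, and the other 4 lay close together. The 5 cells with most reads held 53.8%, 63.2%, 34.8%, 44.6% and 59.8% of the *Slc40a1* reads of their group, so each value rests on a handful of cells. Without the 1% of cells with the highest *Slc40a1* in each group the ratio of CD3e-/- sham to WT sham was within 1.5-fold (log2 -0.54), and so it was without the cells high in tissue dissociation genes (log2 -0.57). After thinning, 7.38%, 4.83%, 6.19%, 5.03% and 4.84% of gated cells had a read, and these intervals overlapped in every pair of groups, for instance 5.20% to 10.1% in WT sham and 2.98% to 7.36% in CD3e-/- sham.

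In CD8-depleted TAC against WT TAC 0 of 9 members were past 1.5-fold in either direction, where 0.739% of 3652 genes were higher and 0.274% lower. The median log2 ratio was 0.01 for the members and for all those genes. *Hmox1* had the largest distance (log2 0.31) and came past 1.5-fold only as a mean of single cells (log2 0.59). CD3e-/- TAC and CD8-depleted TAC share WT TAC as their control, so their ratios are not independent.

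Of the wider pathway list, 32 to 34 of the 52 genes had at least 20 CPM in the gate. In WT TAC against WT sham 2 were past 1.5-fold higher and 3 lower, of 34, where 3.47% of all 6999 genes of at least 20 CPM were higher and 2.74% lower. *Hif1a* was 170 against 80.9 CPM and *Hp* 93.6 against 54.0 CPM. *Cd163* was 61.6 against 264 CPM, *Cp* 24.3 against 47.7 CPM and *Abcg2*, an exporter of heme precursors, 8.60 against 22.2 CPM. In CD3e-/- TAC against CD3e-/- sham *Hp* was higher (136 against 65.2 CPM) and *Cd163* lower (33.7 against 97.1 CPM), where 5.42% of 6936 genes were higher and 3.53% lower. In CD3e-/- sham against WT sham 0 were higher and 2 lower, namely *Cd163* (97.1 against 264 CPM) and *Abcg2* (10.3 against 22.2 CPM), where 1.39% of 6909 genes were higher and 1.62% lower. In CD3e-/- TAC against WT TAC *Steap3*, a ferrireductase of endosomes, was higher (49.5 against 29.2 CPM) and *Cd163* lower (33.7 against 61.6 CPM), where 1.02% of 6892 genes were higher and 0.653% lower. In CD8-depleted TAC against WT TAC *Cd163* was higher (99.3 against 61.6 CPM), where 0.58% of 6900 genes were higher and 0.246% lower. *Cd163* was thus past 1.5-fold in all 5 comparisons. The *Lyve1* class, to which it belongs as a marker, differed in share in the first 4 but hardly in the last (4.82% against 4.69%). The *Cd163* ratios in the 5 comparisons are not independent, since they share groups.

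The genes with a pattern most like a member were found by Pearson's r of log2 CPM (10 CPM added) over 37 sums of class and group, among 6962 genes of at least 20 CPM. These sums share 1 library and groups, so r is a description. *Hmox1* was closest to *Slc11a1* (r = 0.94), *Lamp1* and *Tnfsfm13*, *Blvra* to *Dhrs3*, *Acp2* and *Tmem37*, and *Blvrb* to *Myo5a*, *Abca1* and *Glul*. *Slc40a1* was closest to *Gas6* (r = 0.87), *Ctsf* and *Colec12*, *Slc11a1* to *Pla2g7* and *C3ar1*, and *Hpgd* to *Abca9* (r = 0.96), *Cd33* and *Lifr*. *Tfrc* had no close partner, the nearest being *Zmynd11* (r = 0.80), *Nsmce1* and *Chd6*. The ferritin chains were closest to ferritin pseudogenes and to *Gm15590*, and *Ftl1* reached r = 0.999 with *Ftl1-ps1*, whose reads can be reads of *Ftl1*. Among the members themselves r was 0.92 for *Hmox1* with *Ftl1* and 0.94 for *Fth1* with *Ftl1*, and it was -0.61 for *Hmox1* with *Tfrc*.

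Markers of other cells were low in the gate. The B cell list (6 genes) summed to 195 to 361 CPM over the groups with 3 of its genes under 1 CPM, the T cell list (4 genes) to 6.76 to 15.4 CPM, the endothelial list (4 genes) to 18.1 to 41.9 CPM and the cardiomyocyte list (6 genes) to 24.5 to 57.8 CPM. The neutrophil list (6 genes) summed to 63.4 to 211 CPM and was lowest in WT sham. The erythroid list summed to 0.0400 to 0.928 CPM, with each of its genes under 1 CPM. The dividing cell list (4 genes) summed to 103 to 222 CPM. Cells with *Mki67* of at least 50 CPM had 321 CPM of *Hpgd*, the others 269 CPM, and without them *Hmox1* in CD3e-/- TAC against WT TAC came within 1.5-fold (log2 0.54).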

How the data were processed

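The authors sequenced CD45+ heart cells of 5 hashtag groups as 1 pooled TAS-Seq library. The deposited matrix holds raw read counts per gene and cell barcode, after the authors assigned hashtags and removed low read numbers per gene (DBEC). The submitters' processing notes name cutadapt 2.10, Bowtie2 2.4.2 and GRCm38. Hashtag names came from the notes deposited with the matrix, and 48 columns of doublets or without a hashtag were not used. Cells with at least 500 genes and a mitochondrial share of at most 0.4 were kept, without a doublet caller beyond the hashtags. Cells were classed by CPM of 1 gene each (*Cd79a* 500, *Lyz2* 2000, *Csf1r* 200, *Lyve1* 200, *Gpnmb* 200, *Ly6c2* 500, *Cd209a* 200, *Ccr2* 1000). Reads were summed per class and group, 10 CPM was added, and log2 ratios past 1.5-fold were counted beside all genes of at least 50 CPM. With 1 sample per group no test was made.

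Intervals are exact Poisson for counts and exact Clopper-Pearson for shares (95%), and cells were thinned to 38953 reads for shares, which left out 90, 61, 101, 43 and 44 gated cells per group. Kept cells held 91899777 to 208758777 reads per group. On simulated data for WT TAC against WT sham with 3484 genes, 200 of 200 genes changed by 2-fold were recovered. The simulated sums held counting error alone at the depth of the groups, so this recovery was all but certain. It checks the computation only, and not the spread between cells or animals. The named genes are the 9 members, the genes of the pathway list past the limits given, and the 3 genes most like each member, of which 1 is not reported here. The marker lists of the *Lyve1*, *Gpnmb*, *Ly6c2* and *Cd209a* classes summed to 1731, 4468, 1578 and 19981 CPM in the gate. The members and lists were chosen with earlier results of these data known. The software was Python 3.11.15 with pandas 2.3.3, matplotlib 3.10.9, scipy 1.17.1 and numpy 2.4.6.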

Additional observations from a re-analysis of the deposited data

How the results depend on the processing

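The count of members past 1.5-fold was recomputed under 15 alternatives per comparison, of which those that left out cells high in *Hmox1* or *Prg4* were chosen after seeing the data. It stayed at 1 (*Hpgd*) in all 15 for CD3e-/- TAC against CD3e-/- sham. For WT TAC against WT sham it was 2 with 0 CPM added and 0 with the class shares of WT TAC. For CD3e-/- sham against WT sham it was 2, and 10 of the 15 alternatives left it at 2. It became 3 with 0 CPM added (*Tfrc* too, log2 0.60) and 1 with the mean of single cells or with 50 CPM added. It became 0 without the top 1% of cells or with the class shares of WT TAC. For CD3e-/- TAC against WT TAC it was 1, and it became 2 with the mean of single cells, and 0 with the gate limits doubled, with 50 CPM added or without the high *Hmox1* cells. An equal count can hide another gene: in CD3e-/- TAC against WT TAC *Hpgd* took the place of *Hmox1* without the top 1% of cells and without dividing cells, and in CD3e-/- sham against WT sham *Hpgd* (log2 -0.62) took that of *Slc40a1* without the cells high in dissociation genes. For CD8-depleted TAC against WT TAC it was 0, and 1 with the mean of single cells. The number of members highest in the *Lyve1* class was 4, and 2 without the cells high in dissociation genes. The log2 ratio of *Hpgd* after TAC lay between -1.02 and -0.46 in WT mice and between -1.19 and -0.82 in CD3e-/- mice over the 13 alternatives not chosen after seeing the data, that of *Hmox1* from 0.35 to 1.06 in sham and from 0.41 to 0.77 in TAC, and that of *Slc40a1* in sham from -1.31 to -0.27. Beyond what the construction of an alternative shows, the cause was not tested. With 1 sample per group, animal-to-animal spread is unknown. No paired analysis was possible because the groups share no replicate numbers.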
